A study of Mus musculus with 6 samples.

Results

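The locus of miR-322, miR-503, miR-351, miR-542 and miR-450 is a polycistronic miRNA cluster of the mouse X chromosome, in which several hairpins are cut from neighbouring stretches of RNA. Its members were taken by name from the table of known mature miRNAs, as every row whose name without the arm suffix was miR-322, miR-503, miR-351, miR-542, miR-450a or miR-450b. This gave 11 of the 1978 known mature miRNAs, and all 11 passed the expression filter that left 619 miRNAs for testing. The locus was chosen by earlier results of the same libraries, in which miR-503-5p was among the miRNAs with the smallest p between hypoxia and control. The comparison of hypoxia with control is therefore given for its members as a description and not as support for a difference.

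The study compared c-kit+ cardiac progenitor cells cultured under hypoxia for 12 hours (3 libraries) with control cells at 0 hours (3 libraries). The cells were wild-type and came from hearts of male C57BL/6 mice aged 4 to 6 weeks, sorted with magnetic beads carrying an antibody to c-kit, a receptor tyrosine kinase used to mark progenitor cells. The labels name hypoxia as the treatment of the control samples too, so the groups follow the titles and times. The titles call the replicates biological, but whether they came from separate animals or cultures is not stated in the labels, nor is the oxygen level. Any p-value therefore reflects only the variation among these libraries, which may not be that among animals. Unless the controls were cultured equally long, hypoxia and time in culture cannot be told apart. The extraction text speaks of exosome RNA and the design text of cellular RNA. Libraries are named by group and by the column letter A, B or C.

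A miRNA hairpin is cut by Drosha and Dicer into a 5p and a 3p strand, and one strand is usually loaded into an Argonaute protein as the guide while the other is degraded. The guide pairs with target mRNAs mainly through its seed, bases 2 to 8. miR-322, called miR-424 in human, and miR-503 are relatives of the miR-15/16 family and are known to repress cell cycle genes such as Cdc25a in mouse myoblasts, and human miR-424 is known to be induced by hypoxia in endothelial cells, where it represses CUL2. miR-351 has the seed of the miR-125 family.

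The hairpins lie on the minus strand of chromosome X between 53047997 and 53054349 (GRCm38), a span of 6353 bp. In the direction of transcription their order is Mir322 (53054255 to 53054349), Mir503 (53053984 to 53054054), Mir351 (53053255 to 53053353), Mir542 (53049403 to 53049487), Mir450-2 (53048299 to 53048367), Mir450-1 (53048154 to 53048244) and Mir450b (53047997 to 53048078). Mir322 and Mir503 are separated by 200 bp and Mir503 and Mir351 by 630 bp, whereas 3767 bp lie between Mir351 and Mir542. The 3 miR-450 hairpins lie 54 and 75 bp apart. GENCODE M21 places no other gene over any of the 7 hairpins. A lincRNA gene of the same strand, Gm28730 (53051194 to 53053159), lies in the gap between Mir351 and Mir542. Upstream of Mir322 on the same strand lies a gene annotated as a processed transcript, C430049B03Rik (53055046 to 53057190).

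**Figure D1:**
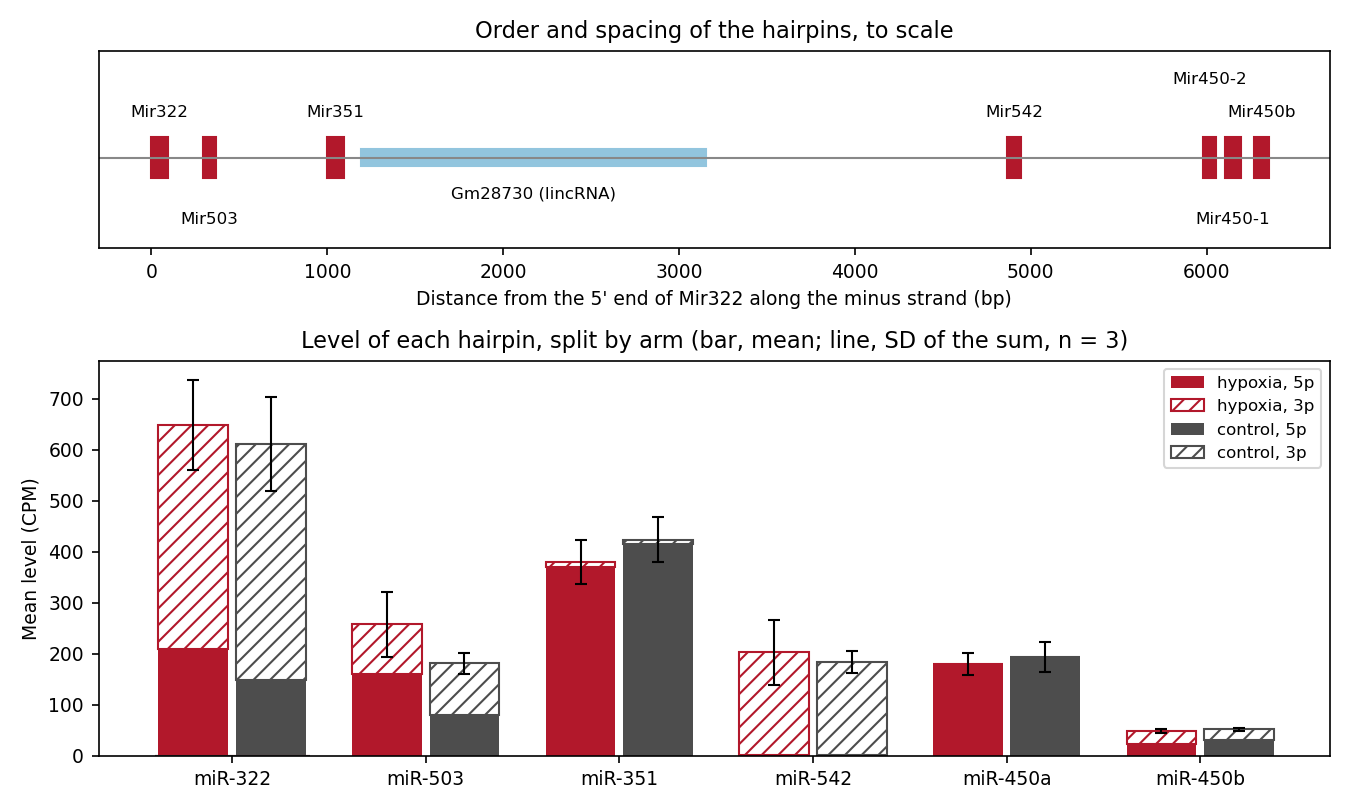
Upper panel, the 7 hairpins and the lincRNA gene drawn to scale against distance in bp from the 5′ end of Mir322. Lower panel, mean level in CPM (n = 3) of each named hairpin in hypoxia and control, with 5p filled and 3p hatched and the SD of the sum as a line. The miR-503 hairpin averaged 258 CPM in hypoxia and 181 CPM in control, and its added level lies in the filled 5p part.

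Mature sequences, except those of miR-351-3p and miR-542-5p, are shown because the seeds of miR-322-5p and miR-351-5p also occur in tested miRNAs outside the locus. Each is written 5′ to 3′ with the seed in capitals (RefSeq, GRCm38.p6, all members on the minus strand of chromosome X), and miR-16-5p and miR-125b-5p, encoded elsewhere, are added for comparison.
miR-322-5p: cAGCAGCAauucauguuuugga
miR-503-5p: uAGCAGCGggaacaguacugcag
miR-16-5p: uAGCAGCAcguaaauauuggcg
miR-351-5p: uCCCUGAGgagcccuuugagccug
miR-125b-5p: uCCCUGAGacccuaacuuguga
miR-450a-5p: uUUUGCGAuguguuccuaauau
miR-450b-5p: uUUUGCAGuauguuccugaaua
miR-450b-3p: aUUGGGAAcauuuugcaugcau
miR-322-3p: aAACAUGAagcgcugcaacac
miR-503-3p: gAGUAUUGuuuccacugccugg
miR-542-3p: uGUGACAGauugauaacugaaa

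The seed of miR-322-5p was the same as that of miR-16-5p, and miR-503-5p differed from miR-322-5p within the seed only by A8G (position from 1 at the 5′ end, miR-322-5p base first). Between miR-450a-5p and miR-450b-5p the seed differed by G7A and A8G, so these relatives did not share a 7-base seed. miR-351-5p and miR-125b-5p had identical seeds and 10 of 22 aligned positions in common. miR-450a-5p is encoded by Mir450-1 and Mir450-2 alike, and its counts cannot be divided between these hairpins.

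Known miRNAs gave between 12285970 and 16975987 counts per library, and the locus held 24382 to 31243 of these in hypoxia libraries and 19355 to 27545 in control libraries. Library totals and summed levels of marker lists overlapped between the groups, where CPM is the read count divided by the library's TMM-adjusted total, on the customary CPM scale. The sums were 200664 to 238068 CPM in hypoxia and 227202 to 249650 CPM in control for 2 endothelial markers, and 104 to 176 CPM in hypoxia and 77.2 to 172 CPM in control for 6 cardiomyocyte markers. For 5 fibroblast and smooth muscle markers they were 26573 to 50347 CPM in hypoxia and 26073 to 57421 CPM in control, and for 7 blood markers 42.6 to 56.8 CPM in hypoxia and 49.4 to 55.02 CPM in control. No marker was at 0 in all libraries. Taken singly, 2 of the 6 cardiomyocyte markers did not overlap between the groups, beside 12.9% of the 619 tested miRNAs, and both were higher in hypoxia at low levels. These were miR-133b-3p, with 25 to 55 counts per library in hypoxia and 9 to 23 in control, and miR-208a-3p, with 4 to 9 counts in hypoxia and 3 in each control library. Of this list miR-208a-3p and miR-208b-3p did not pass the expression filter, so the share over the 619 does not cover them. The cardiomyocyte sum was 137, 176 and 104 CPM in hypoxia A, B and C, against 85.1, 172 and 77.2 CPM in control A, B and C, so it was higher in the hypoxia library within each letter. The sums of the other lists ran in both directions over the letters. Almost all of the endothelial sum was miR-126a-3p, and most of the fibroblast and smooth muscle sum was miR-143-3p. Of the strands on these lists, miR-126a-5p, miR-199a-3p and miR-214-3p were higher in hypoxia within each letter, and the rest were not. The part of cell composition in the results below was not tested. In such bulk RNA, fewer cells expressing a miRNA and less of it per cell cannot be told apart.

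The locus as a whole did not differ beyond the spread between libraries. Its 11 members summed to 1878, 1495 and 1784 CPM in hypoxia libraries A, B and C, against 1697, 1487 and 1754 CPM in control libraries A, B and C. The means were 1719 ± 199 CPM in hypoxia and 1646 ± 140 CPM in control (SD, n = 3 each), a ratio of 1.04. Library B was the lowest of its group on both sides, and the groups overlapped. Of the members 6 had a log2 fold change above 0 and 5 below, with a median of 0.02, beside a median of 0.01 and 51.2% above 0 among all tested miRNAs.

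Mean levels within the locus ran from 1.87 to 439 CPM in hypoxia and from 1.84 to 463 CPM in control. The mature strands measure 21 to 24 bases, so no correction for length was made, but small RNA libraries do not recover all sequences equally and the order below is one of read counts. In hypoxia miR-322-3p (439 ± 40.2 CPM) and miR-351-5p (371 ± 42.1 CPM) stood highest, and in control they did as well, with 463 ± 55.5 and 415 ± 43.2 CPM (SD, n = 3 each). Within each group the ranges of these top members overlapped, and in each group both lay above every other member in every library.

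A middle group followed in hypoxia with miR-322-5p, miR-542-3p, miR-450a-5p and miR-503-5p at group means of 209.5, 201, 181 and 159.8 CPM, each overlapping the next in range. In control the order was miR-450a-5p (194 CPM), miR-542-3p (182 CPM) and miR-322-5p (148 CPM), again overlapping, then miR-503-3p (102 CPM) and miR-503-5p (78.9 CPM), which did not overlap. Both arms of miR-450b, miR-351-3p and miR-542-5p came last in each group. Among all 619 tested miRNAs, miR-503-5p ranked 148th by mean level in hypoxia and 193rd in control, and miR-322-5p ranked 126th and 152nd.

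**Figure D2:**
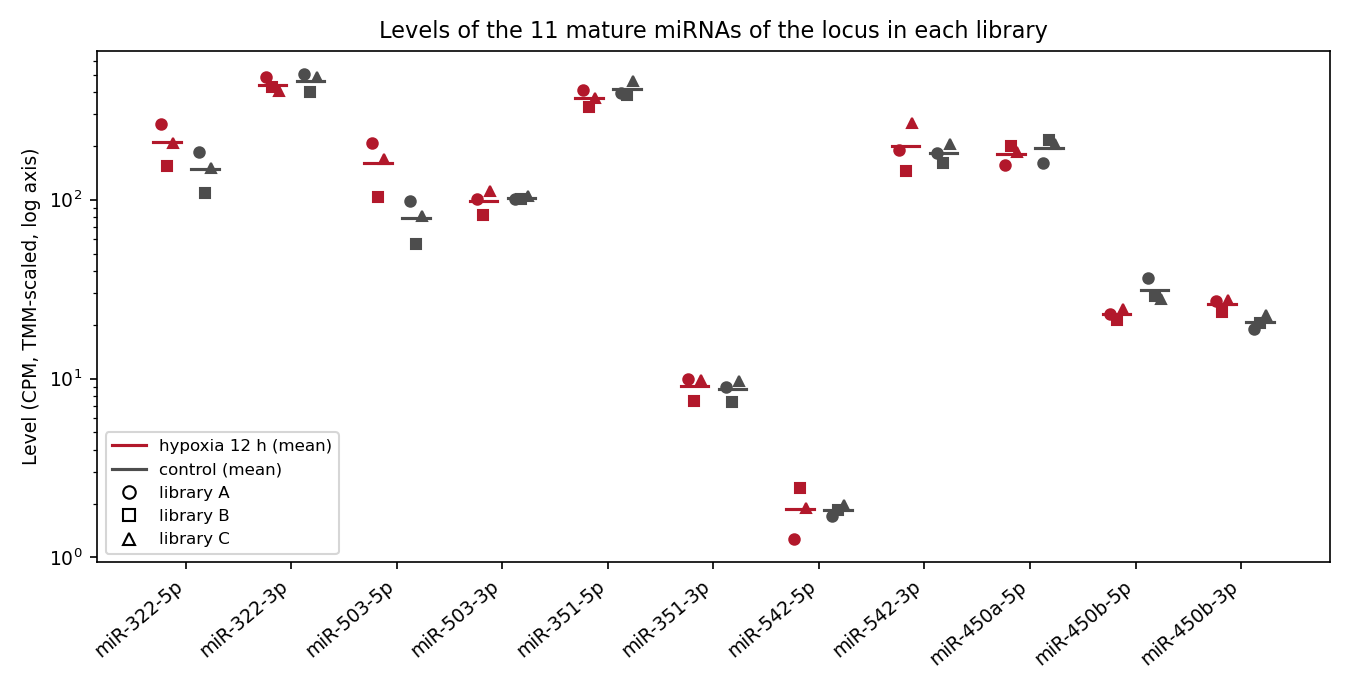
Level in CPM (log axis) of each of the 11 members in the order of the locus, with hypoxia in red and control in grey, symbols for libraries A, B and C and a line at each mean. The groups are separate for miR-503-5p, miR-450b-5p and miR-450b-3p and overlap for the other 8.

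mmu-miR-503-5p had the largest difference of the locus. Its level was 207, 104 and 169 CPM in hypoxia libraries A, B and C, against 98.6, 56.7 and 81.4 CPM in control libraries A, B and C, from 3440, 1696 and 2325 counts against 1218, 738 and 1279. Each hypoxia library lay above every control library, by a narrow margin between hypoxia B and control A. The fold was 2.03 between the means, 159.8 ± 52.0 CPM in hypoxia and 78.9 ± 21.1 CPM in control (SD, n = 3 each). The fitted log2 fold change was 1.02 (SE 0.31). The libraries ran in the same order in each group, with A highest and B lowest, and the fold within a letter was 2.10 (A), 1.83 (B) and 2.07 (C).

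Its partner strand mmu-miR-503-3p, cut from the same hairpin, had 100.4, 82.1 and 112 CPM in hypoxia A, B and C, against 101, 101 and 104 CPM in control A, B and C. The hypoxia libraries lay on either side of the control libraries, and the log2 fold change was -0.06 (SE 0.19). With both arms added, the miR-503 hairpin stood at 258 ± 63.6 CPM in hypoxia and 181 ± 21.4 CPM in control (SD, n = 3 each), and these groups overlapped because hypoxia B (186 CPM) lay below control A (199.5 CPM).

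mmu-miR-322-5p, which shares its seed with miR-15 and miR-16, had 265, 154 and 209 CPM in hypoxia A, B and C, against 186, 109.7 and 149.6 CPM in control A, B and C. The groups overlapped, since hypoxia B lay below control A, while A was highest and B lowest in each group as for miR-503-5p. The ratio was almost the same within each letter, with values of 1.43 (A), 1.41 (B) and 1.39 (C), and the log2 fold change was 0.50 (SE 0.27). The other arm, mmu-miR-322-3p, had 484, 428 and 406 CPM in hypoxia A, B and C, against 505, 399.8 and 483 CPM in control A, B and C. Its groups overlapped with a log2 fold change of -0.07 (SE 0.18).

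The arms of miR-450b differed between the groups in opposite directions, at low levels. mmu-miR-450b-5p had 23.1, 21.2 and 24.6 CPM in hypoxia A, B and C, against 36.4, 28.9 and 28.0 CPM in control A, B and C, and all hypoxia values were lower. mmu-miR-450b-3p had 27.3, 23.4 and 27.5 CPM in hypoxia A, B and C, against 18.9, 20.5 and 22.7 CPM in control A, B and C, and all hypoxia values were higher, from 379 to 454 counts against 233 to 356. The log2 fold changes were -0.44 (SE 0.20) for the 5p arm and 0.33 (SE 0.19) for the 3p arm. The sum of the arms was 49.0 ± 3.94 CPM in hypoxia and 51.8 ± 3.10 CPM in control (SD, n = 3 each), and it overlapped.

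The remaining members overlapped between the groups. mmu-miR-351-5p had 413, 329 and 369.9 CPM in hypoxia A, B and C, against 398, 383 and 464 CPM in control A, B and C (log2 fold change -0.16, SE 0.18). mmu-miR-542-3p, known to repress survivin in human cells, had 189, 144 and 269 CPM in hypoxia A, B and C, against 181, 161 and 204 CPM in control A, B and C (0.14, SE 0.25). Hypoxia C was the highest of all 6 libraries for this strand and hypoxia B the lowest. mmu-miR-450a-5p had 157, 199.6 and 185.5 CPM in hypoxia A, B and C, against 161, 217 and 204 CPM in control A, B and C (-0.10, SE 0.20). For miR-450a-5p the order of the libraries was turned round relative to miR-503-5p, with B highest and A lowest in each group.

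The scarce strands of miR-351 and miR-542 each had a larger SE than their partner strand. miR-351-3p had 9.09 ± 1.39 CPM in hypoxia and 8.70 ± 1.21 CPM in control, and miR-542-5p had 1.87 ± 0.596 CPM in hypoxia and 1.84 ± 0.137 CPM in control (SD, n = 3 each), the last from 21 to 40 counts per library. Their log2 fold changes were 0.06 (SE 0.23) and 0.02 (SE 0.36). The rows miR-450a-1-3p and miR-450a-2-3p belong to the locus under names that the rule does not take. miR-450a-1-3p had 4.37 ± 0.703 CPM in hypoxia and 3.42 ± 0.535 CPM in control, and miR-450a-2-3p had 0.809 ± 0.660 CPM in hypoxia and 0.668 ± 0.259 CPM in control (SD, n = 3 each). miR-450b-3p differed from miR-450a-1-3p at 2 of 22 positions (A19G and A20C, miR-450a-1-3p base first), so reads lacking their 3′ end could belong to either, and the separate values of these rows are uncertain.

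**Figure D3:**
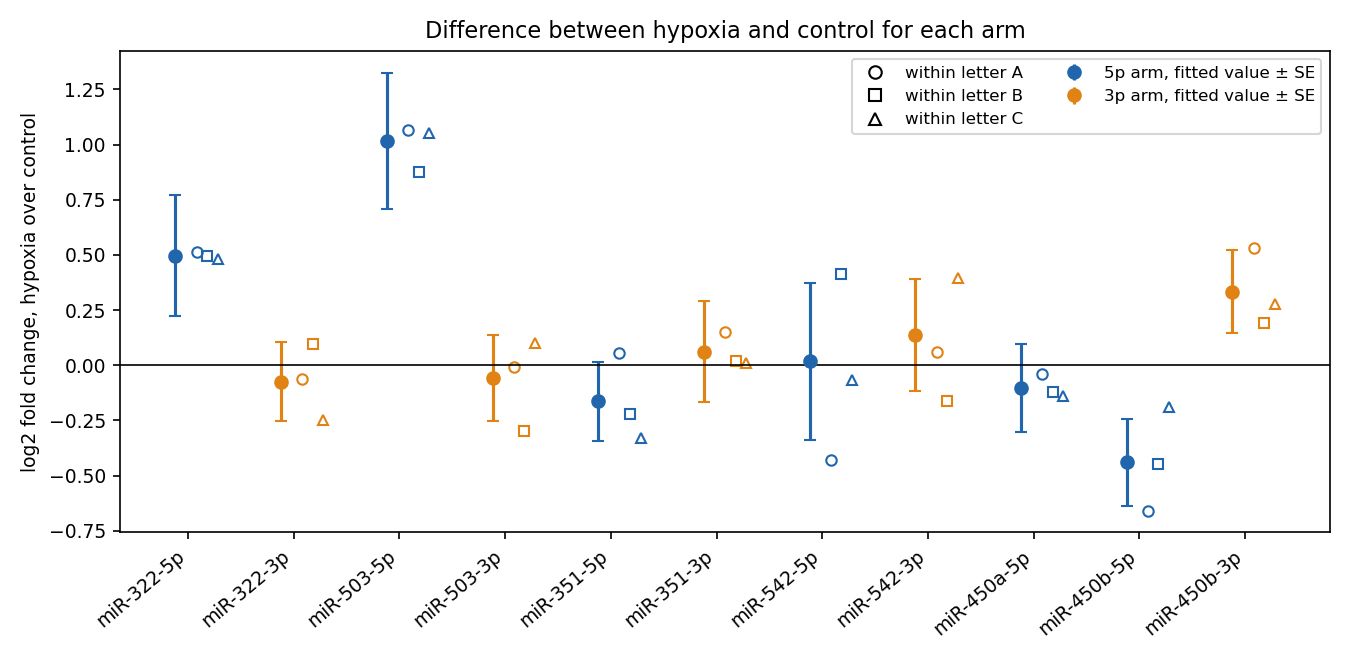
Fitted log2 fold change of hypoxia over control for each member (filled circle, bar = SE) with the differences within letters A, B and C as open symbols, 5p arms in blue and 3p arms in orange. miR-503-5p stands at 1.02 and miR-322-5p at 0.50 with their 3p arms near 0, and the miR-450b arms lie on opposite sides of 0.

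Fitted over the whole table without a block, edgeR's quasi-likelihood test called 0 of 619 (0%), and so 0 of the 11 members. An unadjusted p under 0.05 was reached by 42 miRNAs, of which miR-503-5p was the 1 member. On the same contrast limma-voom called 0 and DESeq2 called 1 miRNA, none of them a member. With the column letter as a block edgeR called 14 of 619 (2.26%), 6 of them higher in hypoxia (0.969%), and 1 of the 11 members, miR-503-5p (log2 fold change 1.00, SE 0.12, adjusted p = 0.0072). In that fit miR-322-5p had a log2 fold change of 0.50 (SE 0.11, adjusted p = 0.055). The blocked call of miR-503-5p was kept without pair B (edgeR adjusted p = 9.9e-05) and lost without pair A (adjusted p = 0.054) or pair C (adjusted p = 0.47). Its log2 fold change was 0.96 (SE 0.12) without pair A and 0.96 (SE 0.14) without pair C, and each of these fits called 0 miRNAs. The groups did not overlap for 3 of the 11 members, beside 80 of the 619 tested miRNAs (12.9%). Because the locus was selected with this contrast in view, nothing is read from these counts.

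The ratio of the arms of 1 hairpin is taken within a library and does not depend on how libraries are scaled. For miR-503 the 3p strand made up 32.7% of the hairpin's counts in hypoxia A (95% interval 31.4 to 34.0), 44.1% in hypoxia B (42.3 to 45.9) and 39.8% in hypoxia C (38.3 to 41.4). In control it made up 50.6% in A (48.6 to 52.6), 64.0% in B (61.9 to 66.1) and 56.2% in C (54.3 to 58.0). In every hypoxia library the 5p strand was therefore the more frequent arm, while in every control library the 3p strand was, although the interval of control A included equal shares. The group means of the 3p share were 38.9 ± 5.77% in hypoxia and 56.9 ± 6.76% in control (SD, n = 3 each), which differ by -18.0 percentage points. The log2 ratio of 5p over 3p was higher in hypoxia by 1.07 (A), 1.17 (B) and 0.95 (C).

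Both strands can be placed on the hairpin, shown with the mature arms in capitals (5p first, RefSeq, GRCm38.p6, chromosome X, minus strand), together with the hairpins of miR-322 and miR-450b, the ones with the next largest differences in arm ratio within the locus.
Mir503: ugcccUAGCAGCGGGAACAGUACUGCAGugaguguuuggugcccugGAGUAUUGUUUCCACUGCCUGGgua
Mir322: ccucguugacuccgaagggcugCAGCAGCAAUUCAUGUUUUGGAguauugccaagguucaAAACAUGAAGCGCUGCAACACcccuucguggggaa
Mir450b: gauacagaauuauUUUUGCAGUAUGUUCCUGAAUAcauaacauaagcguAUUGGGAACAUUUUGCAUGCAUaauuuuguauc

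For miR-322 the 3p strand was the more frequent arm in every library. Its share was 64.6%, 73.5% and 66.1% in hypoxia A, B and C, against 73.1%, 78.5% and 76.4% in control A, B and C. The groups overlapped at hypoxia B and control A, yet within each letter the hypoxia library had the smaller 3p share, and the log2 ratio of 5p over 3p differed by 0.57, 0.40 and 0.73 for A, B and C. The difference ran the other way for miR-450b, whose 3p share was 54.2%, 52.5% and 52.8% in hypoxia A, B and C, against 34.1%, 41.5% and 44.7% in control A, B and C. These groups did not overlap, the counts of both arms ranged from 643 to 838 per library, and control A lay farthest from the others. The share uses the miR-450b-3p row, whose separation from miR-450a-1-3p is uncertain, as stated above.

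The other hairpins kept a strongly unequal use of arms. The 3p strand of miR-351 held 2.39 ± 0.180% of its hairpin in hypoxia and 2.05 ± 0.161% in control, with no overlap of the values although the counting intervals of single libraries overlapped. For miR-542 it held 99.0 ± 0.576% in hypoxia and 99.0 ± 0.111% in control (SD, n = 3 each), and the groups overlapped. The 3p strand was thus the rarer one by far for miR-351 and nearly the only one for miR-542.

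**Figure D4:**
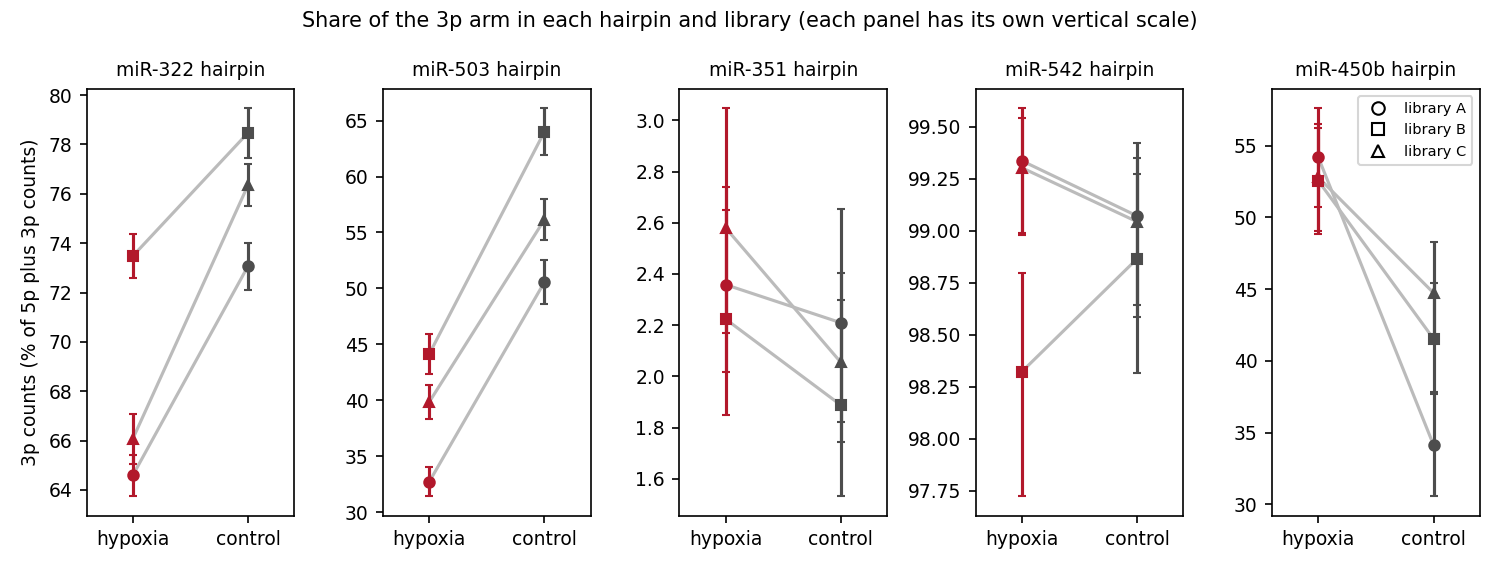
Counts of the 3p strand as a percentage of both arms (vertical, each panel on its own scale) for the 5 hairpins with both arms in the rule, hypoxia at the left and control at the right, symbols by letter, grey lines joining equal letters and bars for 95% counting intervals. The 3p share of miR-503 lies between 32.7% and 44.1% in hypoxia and between 50.6% and 64.0% in control, and that of miR-450b runs the other way.

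These arm shares were set beside those of the 138 hairpins in the table with a 5p and a 3p strand that each passed the filter and had a count in every library. Hairpins with a copy number in the gene symbol, a mature sequence shared with another RefSeq hairpin or a row with counts identical to another were left out. The 3p share did not overlap between groups for 27 of the 138 (19.6%) and for 3 of the 5 hairpins of the locus, miR-503, miR-351 and miR-450b. The median absolute difference in the log2 ratio of arms was 0.27, and 5 hairpins exceeded 1, of which miR-503 was the 4th largest. miR-450b ranked 14th, miR-322 24th, miR-351 77th and miR-542 111th. The rank of miR-450b carries the uncertainty of its 3p row. In control the 3p strand held the larger share in 57 of the 138 hairpins, among them miR-322, miR-503 and miR-542. As the arm counts come from the contrast in view when the locus was chosen, these ranks are a description.

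The relatives by seed show how much of each seed's signal the locus supplied. The seed AGCAGCA was carried by 6 tested miRNAs, which are miR-322-5p, miR-16-5p, miR-15a-5p, miR-195a-5p, miR-15b-5p and miR-497a-5p. They summed to between 2098 and 2654 CPM in hypoxia and between 1577 and 1998 CPM in control, with every hypoxia library above every control library. The share of all seeds whose sums separate in this way was not computed. miR-322-5p made up 7.36% to 11.6% of the AGCAGCA sum in hypoxia and 6.96% to 10.6% in control. miR-16-5p alone had 1557 ± 225 CPM in hypoxia and 1168 ± 173 CPM in control (SD, n = 3 each), and its groups overlapped. The 5 relatives outside the locus had log2 fold changes between 0.22 (miR-497a-5p, SE 0.24) and 0.72 (miR-15a-5p, SE 0.26). All 5 were above 0, beside 51.2% of all tested miRNAs. Adjusted over all tested miRNAs, edgeR called 0 of 5 with or without the block, while 3 reached an unadjusted p under 0.05 with the block, beside 21.3% of all 619, and 1 without it, beside 6.79%. The groups did not overlap for 1 of the 5, miR-15a-5p, beside 12.9% of the tested miRNAs. The seed of miR-503-5p occurred in no other miRNA of the table that had a RefSeq sequence.

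The seed CCCUGAG was carried by 3 tested miRNAs and was supplied almost wholly from outside the locus. miR-351-5p made up 2.39% to 3.16% of its sum in hypoxia and 2.58% to 3.27% in control, the rest being miR-125b-5p and miR-125a-5p. miR-125b-5p had a log2 fold change of 0.03 (SE 0.12) and miR-125a-5p of -0.26 (SE 0.24), and edgeR called neither, with or without the block.

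The members differed in how closely they followed their common mean over the libraries. Each tested miRNA's centred log2 CPM was compared with the mean of the members over the 6 libraries by the root mean square difference. Among the members this distance ran from 0.08 for miR-351-3p to 0.53 for miR-503-5p, so miR-503-5p lay farthest from the mean of its own locus. Among the 619 tested miRNAs, miR-351-3p ranked 3rd by closeness to that mean, miR-503-3p 14th, miR-322-3p 36th, miR-450b-3p 42nd, miR-351-5p 52nd and miR-542-3p 101st. Farther away were miR-450a-5p at 207th, miR-450b-5p at 242nd, miR-322-5p at 257th, miR-542-5p at 287th and miR-503-5p at 500th. Each member is part of the mean it was compared with, and miR-503-5p is the member whose difference between the groups was in view when the locus was chosen. The mean itself varied little, from -0.19 in control B to 0.15 in hypoxia C on the log2 scale. A small distance can therefore also mean that a miRNA hardly varied over the libraries. The 5 miRNAs outside the locus closest to the members' mean were miR-669d-5p, miR-181b-5p, miR-125b-5p, miR-467e-5p and miR-181c-3p, at distances between 0.08 and 0.09. No row of the table followed a member's counts within 1% in every library.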

How the data were processed

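The authors deposited raw counts per known mature miRNA, 1 column per library. The submitters' processing notes list bcl2fastq 2.0, DESeq2 and mm10. No source used here gives the aligner, the counting program, the miRNA release or the handling of multiply matching reads. The deposited table of predicted miRNAs was not used.

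Columns carry a digit and a letter. Digit 0 was taken as control (0 hours) and digit 1 as hypoxia, and every direction rests on that. The letters match no label. Deviations from the group mean over the 619 tested miRNAs correlated between same-letter libraries (r = 0.52 for A, 0.43 for B, 0.28 for C), each the highest for its library. The letter was therefore used as a block beside the unblocked fit. Support for this pairing comes from the same counts that were then tested.

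The 619 miRNAs past filterByExpr were tested together in R 4.3.3 with edgeR 4.0.16 (TMM, quasi-likelihood, Benjamini-Hochberg at 0.05). The fits were also run on counts simulated without a letter effect, so that run cannot vouch for the block in these data. SE is |log2 fold change| over the root of F. Alternatives used DESeq2 1.42.0, limma 3.58.1 (voom), other scalings, no filter, and libraries or letters left out. Shares carry exact Clopper-Pearson intervals for counting error. Sequences are RefSeq's (GRCm38.p6; all 11 members and 2 further miR-450a rows matched), positions GENCODE M21's (GRCm38, the build called mm10). All members are named. Relatives and marker lists were fixed by name, and the 5 most alike miRNAs by distance. Members and lists were chosen with earlier results of these data known.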

Additional observations from a re-analysis of the deposited data

How the results depend on the processing

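Over 20 alternatives, the log2 fold change of miR-503-5p stayed between 0.79 and 1.22, and it was called in 7 (adjusted p from 2.0e-10 to 0.99). That of miR-322-5p stayed between 0.29 and 0.66 and was called in 3. The signs of miR-351-5p, miR-450a-5p, miR-450b-3p and miR-450b-5p also held in all 20, while miR-542-5p changed sign in 10, miR-351-3p and miR-503-3p in 3 each, miR-542-3p in 2 and miR-322-3p in 1. No log2 fold change, arm share or summed locus level moved by more than the SD between libraries under the alternatives run for it. Leaving out a single library cannot shift a mean arm share that far, and it limits shifts of the other values in a similar way. Stability is therefore not read from this, and the ranges are given as a description. The log2 ratio of the summed locus ran from -0.03 to 0.13 against 0.06 with all libraries. The difference in 3p share ran from -21.2 to -14.5 percentage points for miR-503 and from 10.05 to 15.3 for miR-450b.

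Without a block edgeR called 0 miRNAs in all, and 4 without the filter on low counts, including 1 member (miR-503-5p), and DESeq2 called 1 miRNA and 0 members. With the replicate block by letter the count was 14 with 1 member, 23 with 1 member without pair B, and 0 without pair A or pair C. Added after the data were seen, the replicate block with library size only gave 55 with 2 members, with upper-quartile factors 43 with 2, with DESeq2 36 with 2, and with RLE size factors 13 with 1. The second member was miR-322-5p. The causes were not tested. Depth limits miR-542-5p and miR-450a-2-3p, which had at most 40 counts in a library.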
